A study of Mus musculus with 6 samples.

Results

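The genes described here encode molecular chaperones and their co-chaperones, taken by name from a table of gene expression in the forelimb ectoderm of mouse embryos at stage E10.5. A gene belonged to the set when its symbol began with Hsp90, Hspa, Hspb, Hspd, Hspe, Hsph, Dnaja, Dnajb or Dnajc, or was Cct or Bag followed by a number. This rule used no measured value and gave 89 of the 49452 genes in the table. Some carry the name without being chaperones themselves, such as Hspbap1 and Hspbp1, and Hspa14 was listed under 2 identifiers. Cct6a has no symbol in the table and so lies outside the rule.

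Poly(A) RNA of 6 embryos was sequenced, 3 labelled Sp8 null and 3 wild type, and each library came from the ectoderm of both forelimbs of a single embryo. Sp8, a transcription factor with zinc fingers, is needed in limb bud ectoderm for the apical ectodermal ridge. Crosses of C57BL/6 mice gave the wild-type embryos. The null embryos came from crosses of Sp8+/- mice carrying the Sp8-Cre-ERT2 allele, so they also carried a Cre-ERT2 insert that the wild-type embryos lacked, and both groups are labelled with the C57BL6J background. Cross, litter and insert cannot be told apart from the loss of Sp8 in this design. The ectoderm was freed by a trypsin digestion on ice and fine forceps.

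Chaperones bind unfolded or newly made proteins and help them to fold, to assemble or to cross membranes. Hsp70 proteins (the Hspa genes) hold short unfolded stretches in a cycle driven by ATP, J-domain proteins (the Dnaj genes) bring substrates to them and start that cycle, and Bag proteins help Hsp70 to release nucleotide. Hsp90 proteins act late, on clients such as kinases and receptors, the ring-shaped chaperonins enclose whole proteins, and small heat shock proteins (many of the Hspb genes) keep unfolding proteins from clumping. Cells hold separate sets in the cytosol, the endoplasmic reticulum (ER) and the mitochondrial matrix. The ER set is known to be induced by the unfolded protein response, and many cytosolic and mitochondrial members by heat shock factors.

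Values are in FPKM, an estimate of fragments scaled by transcript length and library size, and levels of different genes are compared only on this scale, which is per length. The test took the genes that reached 1 FPKM in 3 or more libraries, which kept 12133 genes and 70 of the 89 members. Fold changes are log2 differences of null against wild type on the log2(FPKM + 1) scale, a scale that understates the change of low genes. A gene was called when limma's two-sided test, adjusted by Benjamini-Hochberg over all 12133 genes, gave an adjusted p under 0.05. In these bulk samples, fewer cells of a type and less RNA per cell cannot be told apart.

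Sp8 itself was at 0.460 to 1.14 FPKM in the null libraries and 8.35 to 13.5 in the wild-type libraries (log2 fold change -2.73, SE 0.20, limma adjusted p = 0.000361), so every library fell on the side its label gives. The 10 ectoderm markers had the highest sum of the marker lists in every library, at 493 to 594 FPKM in the null and 572 to 612 in the wild type. The lists differ in length, so their sums do not rank the shares of tissues. Of the ectoderm markers, Epcam was called lower and Tfap2a higher in the null. The 11 limb mesenchyme markers, of which 9 were tested, summed to 179 FPKM in null embryo 2 and to 48.8 and 55.0 in the other null embryos, against 37.1 to 76.9 in the wild type. By FPKM means 9 of the 11, and 7 of the 9 tested, were higher in the null, and 6 of the 9 had a log2 fold change above 0. Of the 9, Lmx1b alone was called (log2 fold change 1.07, adjusted p = 0.0166). Pdgfra went the other way, with every null library below every wild-type library, and was not called (log2 fold change -1.15, adjusted p = 0.120). The 6 erythroid markers summed to 61.9 to 161 FPKM in the null and 11.6 to 422 in the wild type, with the highest value in wild-type embryo 1 and none called. The 7 macrophage markers summed to 2.91, 5.16 and 4.23 FPKM in null embryos 1 to 3 and to 2.83, 1.69 and 1.82 in wild-type embryos 1 to 3, higher in every null library, and all 7 had the higher mean there, though C1qa was at 0 in 5 of the 6 libraries. The 7 endothelial markers also all had the higher mean in the null and summed to 2.51 to 4.38 FPKM against 2.05 to 2.97. Muscle precursor markers summed to at most 0.846 FPKM in any library, with Lbx1 at 0 in 4 of them. The part of these other cell types in the chaperone values was not tested. Genes induced by tissue dissociation summed to 43.2 to 47.1 FPKM in the null and 39.9 to 46.0 in the wild type, with Btg2 called higher and Jun lower.

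Most chaperone transcripts were lower in the Sp8 null ectoderm, by modest amounts. Of the 9 called lower, 7 had a mean of at least 50 FPKM, a limit chosen after the values were seen. Of the 70 tested members, 10 were called (14.3%), beside 6.83% of all tested genes. Of these, 9 fell, where 5.15% of all genes fell: Hsp90b1, Hspa5 and Dnajb11 of the ER, Hspd1, Hspe1 and Hspa9 of mitochondria, and Hsp90aa1, Hspa2 and Dnajc2. The ER J-protein gene Dnajc1 alone rose, beside 1.68% of all genes. The fitted log2 fold changes of the 9 ran from -0.33 to -0.72 and that of Dnajc1 was 0.77. Among the 70, 58 (82.9%) had a fold change below 0, beside 61.3% of all tested genes, and the median was -0.19 beside -0.06. An unadjusted p under 0.05 was given to 35 of the 70, beside 24.0% of all tested genes. In 32 members every null library lay below every wild-type library, beside 21.1% of all genes. In 4 tested members every null library lay above, beside 8.63%.

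**Figure D1:**
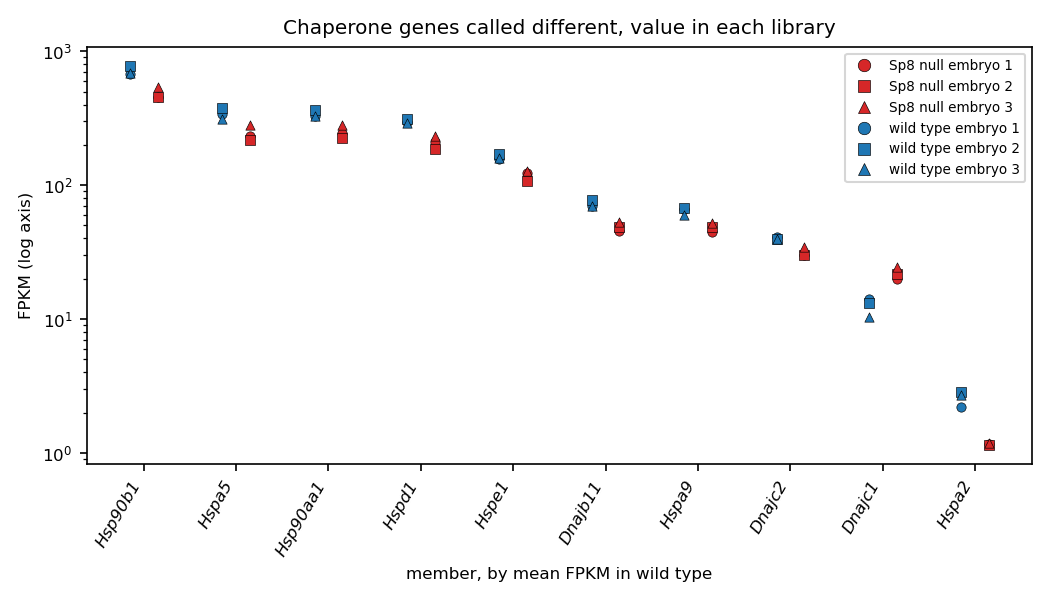
FPKM on a log axis for the 10 called members in each of the 6 libraries, ordered by the wild-type mean, with null embryos in red and wild-type embryos in blue. In 9 members every null library lies below every wild-type library, and in Dnajc1 the order is turned.

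The number of calls changed with the library left out. Each of these fits has fewer libraries, and how far that alone lowers the number was not tested. With 1 library left out, 1.79% to 5.58% of all tested genes were called. Of the members, 3 were called without null embryo 1, 6 without null embryo 2, 14 without null embryo 3, 4 without wild-type embryo 1, 6 without wild-type embryo 3 and 0 without wild-type embryo 2. In the fit without wild-type embryo 2, limma gave the 10 members adjusted p-values of 0.0513 to 0.158, all 10 kept their direction, and 26 of the 70 members had an unadjusted p under 0.05, beside 16.1% of all genes in that fit. Dnajb11, Hspa2 and Dnajc1 lost the call only in that fit among the 6 (adjusted p = 0.0513, 0.0610 and 0.0515). Hsp90b1 lost it there and without null embryo 1 (0.0692 and 0.0575). Hspd1 and Hspe1 kept it only without null embryo 2 or 3, and Hspa9 only without null embryo 3 or wild-type embryo 3. Hsp90aa1, Hspa5 and Dnajc2 kept it only without null embryo 3. Wild-type embryo 2 held the highest wild-type value in 8 of the 9 lower members, and null embryo 3 the highest null value in 9 of 9. Null embryo 2, the library with the highest mesenchyme markers, held the lowest null value in 6 of the 9. Without it the fitted log2 fold changes of these 9 were -0.30 to -0.72 and 6 members were called. The sample names begin with 4 for embryo 1 of each genotype and with 5 for the others, a number the labels do not explain. Among the 4 libraries named with 5, Dnajc1 was the 1 member called and all 10 kept their direction, and those named with 4 are 1 per genotype and give no test.

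The ER set held 3 of the 9 called falls, all in abundant members. Hsp90b1, the Hsp90 of the ER lumen, also called Grp94, was at 456, 457 and 538 FPKM in null embryos 1 to 3 and at 681, 777 and 689 in wild-type embryos 1 to 3. It fell to 484 ± 47.0 (SD, n = 3) from 716 ± 53.3 (SD, n = 3), a log2 fold change of -0.57 (SE 0.09, limma adjusted p = 0.0150). Hspa5, the ER Hsp70 BiP, was at 233, 216 and 279 FPKM in the null and 337, 378 and 311 in the wild type (log2 fold change -0.50, SE 0.11, adjusted p = 0.0448). The highest null value of Hspa5 lay just under its lowest wild-type value. Dnajb11, an ER J-protein that works with BiP, was at 45.4, 48.95 and 52.7 FPKM in the null and 69.5, 77.3 and 69.7 in the wild type. Its log2 fold change of -0.55 (SE 0.08) had the smallest adjusted p of any member, 0.00922, with groups far apart. The ratio of Hsp90b1 to Hspa5 stayed at 1.93 to 2.11 in the null libraries and 2.02 to 2.22 in the wild type, so the pair kept nearly the same proportion in each embryo.

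The other ER members did not follow as a block. Dnajc3, an ER J-protein also called p58IPK, was at 16.4, 13.0 and 17.02 FPKM in the null and 21.1, 21.6 and 18.5 in the wild type, without overlap but not called (log2 fold change -0.38, adjusted p = 0.0971). Hspa13, a microsomal Hsp70 relative, had a log2 fold change of -0.12 (adjusted p = 0.429). Dnajb9, a J-protein gene known as a target of the unfolded protein response, had -0.07 (adjusted p = 0.666), and 0.016 under upper-quartile scaling. Dnajc10, a J-protein that also reduces disulfides, had 0.03 (adjusted p = 0.877), and lay slightly below 0 without null embryo 2, null embryo 3 or wild-type embryo 3 (-0.012, -0.0048 and -0.016). Dnajc1, a membrane J-protein of the ER, was at 20.0, 21.5 and 24.4 FPKM in the null against 14.0, 13.2 and 10.3 in the wild type. It rose 1.75-fold by the ratio of means (log2 fold change 0.77, SE 0.13, adjusted p = 0.0146), and its groups did not overlap. Exons of Dnajc1 overlap those of Mllt10 on the other strand, and whether the counting used strand is not given in the sources used here. Of the 8 ER members, 3 fell and 1 rose, beside 5.15% and 1.68% of all tested genes. Their median was -0.25, beside -0.06 for all tested genes. None of the 8 was called once wild-type embryo 2 was left out, and 1 fell without null embryo 1.

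Short stretches of the RefSeq promoter windows (GRCm38.p6, from 250 bases before to 50 after each annotated start) are shown because the ER stress response element is the textbook motif of this gene group. It was searched as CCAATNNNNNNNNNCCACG, and its second form as ATTGGNCCACG, on both strands. Of the 57 tested members with a window, 3 held the first form, Hspa5, Hsp90b1 and Dnajc3, and Dnajb11 alone held the second. Of all 27025 genes with a window, 0.137% held the first form and 0.0444% the second. The capitals mark the match, and positions are relative to the RefSeq start.
Hspa5, chr2:34772020-34772049, plus strand, match from -65 to -47: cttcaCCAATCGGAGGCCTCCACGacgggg
Hsp90b1, chr10:86705632-86705661, minus strand, the gene's own, match from -212 to -194: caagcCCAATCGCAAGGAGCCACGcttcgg
Hsp90b1, chr10:86705527-86705556, plus strand, opposite to the gene, match from -107 to -89: aactcaCCAATCGTGCCTCACCACGcactc
Dnajc3, chr14:118937822-118937851, plus strand, match from -105 to -87: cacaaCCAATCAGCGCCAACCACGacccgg
Dnajb11, chr16:22857843-22857872, plus strand, match from 8 to 18 after the start: ccggcggcgATTGGCCCACGcctggctgct
Of these 4 genes, 3 fell and Dnajc3 was not called. A match of letters is a description and does not show that a factor bound there. The stretches of Dnajb11 and Hspa5 each overlap an exon of their own gene in GENCODE.

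Several partners of the ER chaperones outside the name rule fell as well. Of 16 tested genes of a list of the unfolded protein response and ER folding, 7 fell and none rose. That is 43.8% called, beside 6.83% of all tested genes, with a median of -0.32 beside -0.06. The called genes were the protein disulfide isomerase genes Pdia6, Pdia3 and Pdia4, the glycoprotein chaperone genes Canx and Calr, and Manf and Creld2, which encode ER proteins induced by ER stress. Pdia6 was at 53.5, 50.4 and 59.5 FPKM in the null and 92.8, 93.3 and 80.2 in the wild type (log2 fold change -0.69, SE 0.09, adjusted p = 0.00592), and it stayed called with each of the 6 libraries left out. The log2 fold changes of the other called genes lay between -0.36 (Calr) and -0.61 (Pdia3). Between 3 and 6 genes of the list fell when a library was left out, with the fewest without null embryo 1, null embryo 2, wild-type embryo 1 or wild-type embryo 2. The sensors and transcription factors of the response were not called: Xbp1 had a log2 fold change of -0.23 (adjusted p = 0.224), Atf4 -0.28, Atf6 -0.10, Ddit3 -0.01 and Ern1 0.31, the last with every null library above every wild-type library. In a list of 6 small regulators of Hsp70, both ER members fell. Sil1, a nucleotide exchange factor of BiP, was at 1.78, 1.56 and 2.12 FPKM in the null and 3.46, 3.41 and 3.24 in the wild type (log2 fold change -0.64, adjusted p = 0.0166), and Hyou1, a large Hsp70 relative of the ER, had -0.46 (adjusted p = 0.0403). That count of 2 was 0 without null embryo 1, wild-type embryo 1 or wild-type embryo 2, and 1 without null embryo 2 or wild-type embryo 3.

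**Figure D2:**
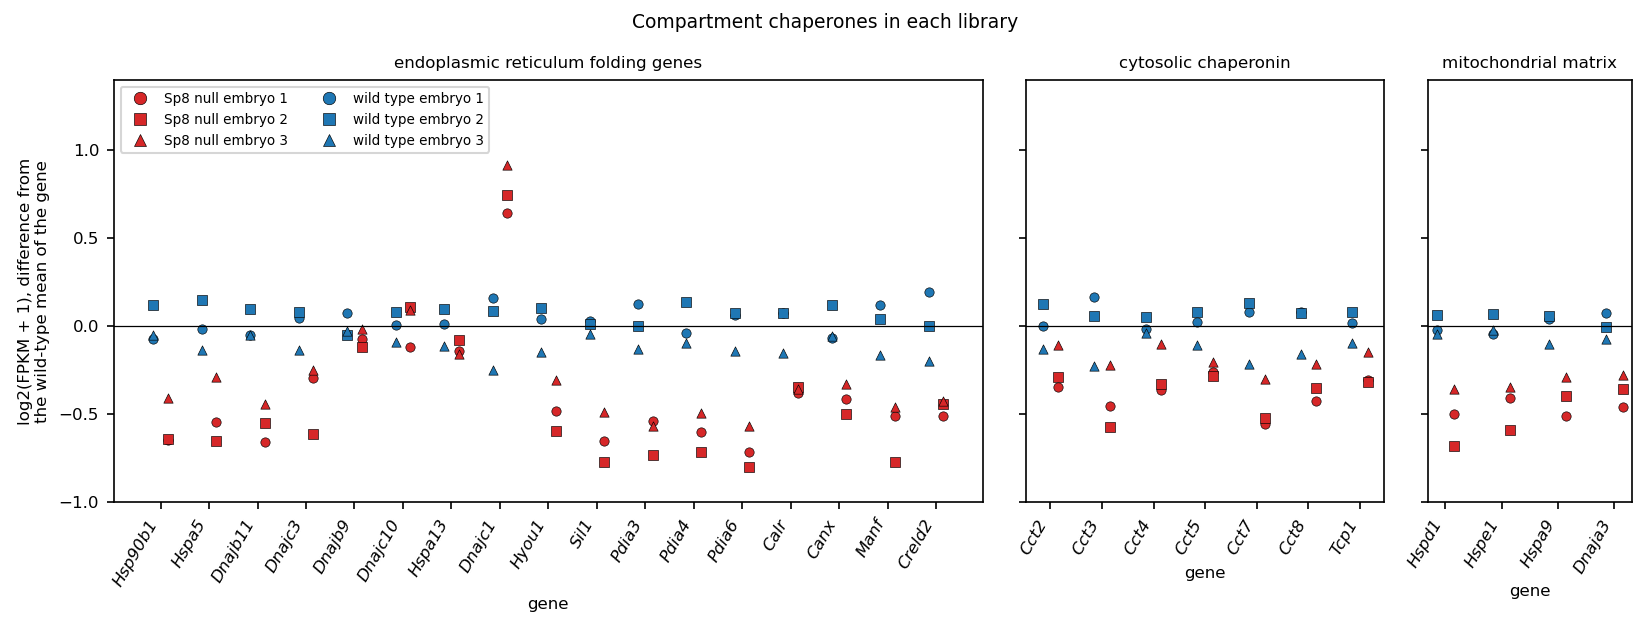
Difference of each library from the gene's wild-type mean, on the log2(FPKM + 1) scale, for ER folding genes, cytosolic chaperonin subunits and mitochondrial matrix chaperones, with null embryos in red and wild-type embryos in blue. Dnajc1 stands above 0 in all 3 null libraries, Dnajb9 and Dnajc10 lie near 0, and null embryo 3 (triangles) is the null library closest to the wild type for most genes.

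The chaperonin of the mitochondrial matrix fell in both of its subunits, and so did the matrix Hsp70. Hspd1, which encodes the chaperonin Hsp60, was at 212, 186 and 233 FPKM in the null and 294, 313 and 291 in the wild type (log2 fold change -0.51, SE 0.09, limma adjusted p = 0.0191). Hspe1, which encodes Hsp10, the lid of that chaperonin, was at 122, 107 and 128 FPKM in the null and 157, 170 and 159 in the wild type (log2 fold change -0.45, SE 0.08, adjusted p = 0.0204). No library of either gene crossed between the groups, and null embryo 2 was the lowest for both. The ratio of Hspe1 to Hspd1 was 0.546 to 0.578 in the null and 0.534 to 0.549 in the wild type. Hspa9, the matrix Hsp70 also called mortalin, was at 44.8, 48.7 and 52.5 FPKM in the null and 66.3, 67.2 and 59.9 in the wild type (log2 fold change -0.40, adjusted p = 0.0329). Dnaja3, the matrix J-protein gene that partners it, lay at 7.48 ± 0.537 FPKM in the null (SD, n = 3) and 9.91 ± 0.574 in the wild type (SD, n = 3), without overlap and just short of the threshold (log2 fold change -0.36, adjusted p = 0.0503). Of the 9 mitochondrial members, 3 fell, where 5.15% of all tested genes fell. Of the same 9, 8 had a fold change below 0, beside 61.3% of all tested genes, and the median was -0.26 beside -0.06. That count of 3 was 0 without null embryo 1, wild-type embryo 1 or wild-type embryo 2, and 1 without wild-type embryo 3. Dnajc28 was the mitochondrial member above 0, at 1.98, 1.97 and 1.60 FPKM in the null and 1.38, 1.41 and 1.11 in the wild type, and it was not called (log2 fold change 0.31, adjusted p = 0.163). In a list of 6 genes of mitochondrial protein quality control, Clpp, a matrix protease subunit, alone fell (log2 fold change -0.35, adjusted p = 0.0421), and it lost the call with any 1 of the 6 libraries left out (adjusted p = 0.0856 to 0.139) and after either scaling between libraries.

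Hspd1 and Hspe1 lie head to head on chromosome 1, Hspd1 at chr1:55077835-55088243 on the minus strand and Hspe1 at chr1:55088132-55091307 on the plus strand (GENCODE M21, GRCm38). Their exons overlap on opposite strands, and each has 1 other gene with a near-identical transcript stretch of at least 95% over 200 bases, so part of their reads may be shared. A stretch upstream of the Hspe1 start at 55088148, overlapping an Hspd1 exon in GENCODE, holds heat shock elements, the motif of heat shock factors, and is shown because the windows of both genes hold it. It was searched as GAANNTTCNNGAA or TTCNNGAANNTTC, which contain the shorter forms GAANNTTC and TTCNNGAA, on both strands. The same 30 bases read from each strand give the following.
Hspe1, chr1:55088053-55088082, plus strand, match from -89 to -72: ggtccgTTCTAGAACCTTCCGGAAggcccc
Hspd1, chr1:55088053-55088082, minus strand, match from -144 to -127: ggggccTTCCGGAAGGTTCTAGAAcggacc
The capitals mark the overlapping matches. RefSeq gives Hspd1 starts at 55088243 and 55087932. The positions printed for Hspd1 count from 55087932, and the stretch lies downstream of the other start. Of 57 tested members with a window, 4 held the longer element, Hspd1, Hspe1, Hsph1 and Dnajb6, beside 0.662% of all genes with a window. The first pair fell, and Hsph1 and Dnajb6 were not called (log2 fold changes -0.30 and -0.14). The shorter form was in 14 of the 57, beside 17% of all genes. The GC box GGGCGG, the kind of site that Sp factors are known to bind, was in 47 of the 57 tested members with a window. Of all 27025 genes with a window, tested or not, 38.2% held it. Whether the members hold any of these motifs more often than other tested genes was not tested. Each of the 7 called members that have a window held the GC box. Dnajc1, which rose, is among these 7.

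Hsp90ab1, the constitutive cytosolic Hsp90, held the highest level of the set, at 1030, 1112 and 1160 FPKM in the null and 1305, 1343 and 1207 in the wild type, about 21.3% to 24.2% of the summed FPKM of all members in each library. Its groups did not overlap, and it was not called (log2 fold change -0.22, adjusted p = 0.147). Hsp90aa1, the inducible cytosolic Hsp90, was at 244, 226 and 281 FPKM in the null and 327, 364 and 327 in the wild type and fell by 0.44 on the log2 scale (SE 0.09, adjusted p = 0.0369). It has 3 other genes with near-identical transcript stretches, which makes its value uncertain. The ratio of Hsp90ab1 to Hsp90aa1 was 4.13 to 4.92 in the null and 3.68 to 3.99 in the wild type, so the constitutive gene took a larger share in every null library. Hspa8, the constitutive cytosolic Hsp70, was second among the cytosolic members. It was at 407, 410 and 478 FPKM in the null and 534, 567 and 529 in the wild type. Its groups did not overlap, and it was not called (log2 fold change -0.34, adjusted p = 0.0551). Hspa8 has 6 other genes with near-identical transcript stretches and shares exon sequence with Snord14c, Snord14d and Snord14e, so its value is uncertain too. Hspa4 and Hsph1, large relatives that act as nucleotide exchange factors for Hsp70, had log2 fold changes of -0.22 (adjusted p = 0.143) and -0.30 (adjusted p = 0.0773).

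Hspa2, an Hsp70 gene best known from the testis, fell most in relative terms among the called members. It was at 1.17, 1.15 and 1.18 FPKM in the null and 2.20, 2.84 and 2.72 in the wild type. The null libraries lay at 0.450 of the wild-type mean (log2 fold change -0.72, SE 0.11, adjusted p = 0.0117), with the groups far apart at a level near the filter. The gene lies on chromosome 12, which also holds Sp8 and Hsp90aa1, at 42.4 Mb from Sp8, and Hsp90aa1 lies at 8.14 Mb. The other tested members there, Bag5 at 7.13 Mb, Dnajb9 at 74.6 Mb and Dnajc27 at 115 Mb, were not called. The classical heat-inducible genes Hspa1a and Hspa1b reached at most 0.161 and 0.309 FPKM in any library and were not tested. They are near-identical copies of each other, so their separate values are uncertain.

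The cytosolic chaperonin CCT, an 8-membered ring that folds actin and tubulin, showed no subunit called by limma, and 6 of the 6 tested subunits had a lower mean in the null and an unadjusted p under 0.05, beside the 24.0% of all genes. Cct7 was at 68.7, 70.4 and 82.0 FPKM in the null and 107, 111 and 87.1 in the wild type (log2 fold change -0.46, SE 0.11, adjusted p = 0.0551). Cct3, the highest of these 6, was at 143, 131 and 168 FPKM in the null and 220, 204 and 167 in the wild type, where null embryo 3 passed wild-type embryo 3 (log2 fold change -0.42, adjusted p = 0.101). Cct8 had -0.33 (adjusted p = 0.0779), Cct4 -0.26 (0.108), Cct5 -0.25 (0.0791) and Cct2 -0.25 (0.163). In 4 of the 6 every null library lay below every wild-type library, beside 21.1% of all genes, and the median was -0.30. All 6 had a mean of at least 50 FPKM, a level at which 79.1% of all tested genes had a fold change below 0. The subunit gene Tcp1, which the name rule leaves out, had -0.26 (adjusted p = 0.0973), and Cct6a, without a symbol in the table and at 607 to 836 FPKM above all 6, had -0.25 (adjusted p = 0.178). Cct8l1 and Cct6b, relatives named with the subunits, stayed at or below 0.0736 FPKM. The highest of the 6 was at 1.94 to 2.17 times the lowest in the null libraries and 2.01 to 2.61 in the wild type. Tcp1 and Cct6a lie outside this ratio, and GENCODE types the Cct6a entry as a processed transcript. Whether all subunits kept their proportions was not tested. Of 9 tested partners of the chaperonin, Tcp1, prefoldin subunits and phosducin-like proteins among them, all 9 had a fold change below 0, or 8 after either scaling between libraries. None was called by limma and 5 had an unadjusted p under 0.05 (24.0% of all genes did), with the smallest adjusted p, 0.0764, at Pfdn5. Of the 6 subunits, Cct4 and Cct7 were called without null embryo 3, and Cct7 was the 1 called without wild-type embryo 3 and after either scaling between libraries.

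**Figure D3:**
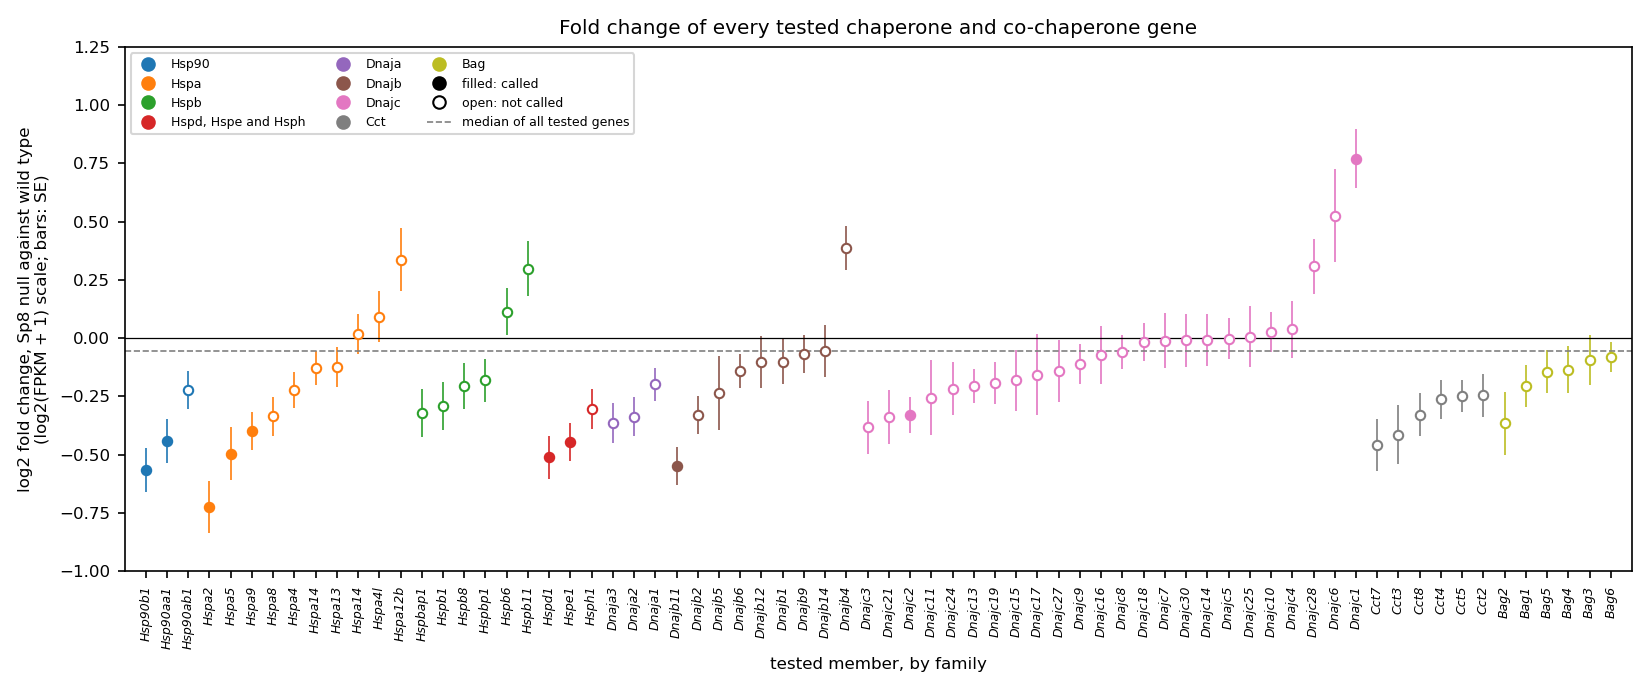
Log2 fold change of null against wild type (points) with its standard error (bars) for the 70 tested members, grouped by family and coloured by it, where filled points are called and open points are not, and the dashed line is the median of all tested genes. The Hsp90, Hspd, Hspe and Hsph, Dnaja, Cct and Bag families lie wholly below 0, though Bag6 crosses 0 after upper-quartile scaling, while Dnajc holds both Dnajc1 at 0.77 and Dnajc3 at -0.38.

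The J-protein families were mixed. All 3 tested Dnaja genes had lower means without overlap, and limma called none while 3 had an unadjusted p under 0.05, as 24.0% of all genes did: besides Dnaja3, the cytosolic Dnaja1 had a log2 fold change of -0.20 (adjusted p = 0.147) and Dnaja2 -0.34 (adjusted p = 0.0570). Of 9 tested Dnajb genes, Dnajb11 fell and 8 had a fold change below 0. Dnajb4, picked out after its values were seen, was the 1 above, at 19.6, 20.9 and 20.0 FPKM in the null and 16.5, 15.96 and 13.3 in the wild type (log2 fold change 0.39, adjusted p = 0.0538). It was called higher under median-of-ratios scaling, under upper-quartile scaling and with a mean filter of 5 FPKM. Of 24 tested Dnajc genes, 1 fell and 1 rose (8.33% called, beside 6.83% of all tested genes). Their median was -0.07, near the -0.06 of all genes, and 0.01 under upper-quartile scaling. Dnajc2, a J-protein bound to ribosomes, was at 30.2, 29.98 and 34.7 FPKM in the null and 40.8, 39.7 and 39.3 in the wild type (log2 fold change -0.33, SE 0.08, adjusted p = 0.0458). Dnajc9, a histone chaperone and the most abundant Dnajc gene, had -0.11 (adjusted p = 0.485). Dnajc6, the neuronal auxilin gene that helps to strip clathrin coats, was named after its values were seen. It was at 4.01, 6.48 and 4.77 FPKM in the null and 4.06, 3.37 and 2.28 in the wild type, which overlap (log2 fold change 0.53, adjusted p = 0.163).

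Small heat shock and Bag genes gave no call by limma, and 3 of 6 tested members named Hspb and 1 of 6 named Bag had an unadjusted p under 0.05, as 24.0% of all genes did. Of 6 tested members named Hspb, 4 had a lower mean. Hspb11, among the 3 with an unadjusted p under 0.05, lay higher in the null (log2 fold change 0.30, adjusted p = 0.175). The others of these 3, Hspb1 and Hspbap1, lay lower. Hspb1, which encodes Hsp27, was at 26.8, 23.7 and 26.1 FPKM in the null and 29.9, 28.7 and 36.4 in the wild type, without overlap (log2 fold change -0.29, adjusted p = 0.140). Hspb8, which works with Bag3, had -0.21 (adjusted p = 0.254). Hspbap1, a protein that binds a small heat shock protein, had -0.32 at under 2 FPKM, with the smallest p of those named Hspb. All 6 Bag genes had a fold change below 0, or 5 after upper-quartile scaling, with a median of -0.14: Bag2 had -0.37 (adjusted p = 0.156), Bag1 -0.21 (adjusted p = 0.216) and Bag3, itself a heat shock target, -0.09 (adjusted p = 0.643).

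Of 11 members known to be induced by heat shock, 9 were tested. The untested Hspa1a and Hspa1b had the higher mean in the null, at 0.128 against 0.0817 FPKM and 0.256 against 0.165 FPKM. All 9 tested members had a fold change below 0, beside 61.3% of all tested genes. Of these 9, 3 fell, Hsp90aa1, Hspd1 and Hspe1, where 5.15% of all tested genes fell. That count of 3 was 0 without null embryo 1 or any 1 of the wild-type embryos, and 2 without null embryo 2. Dnajb1, a J-protein gene often read as a heat shock marker, was at 44.3, 37.3 and 44.4 FPKM in the null and 45.5, 48.7 and 41.0 in the wild type, which overlap (log2 fold change -0.10, adjusted p = 0.579). Among heat shock factors, Hsf1 had -0.12 (adjusted p = 0.504) and Hsf2 -0.04. The regulator Hsbp1 had 0.18, with every null library above every wild-type library (adjusted p = 0.172). None of these 3 was called by limma, and 1 had an unadjusted p under 0.05, as 24.0% of all genes did. Of 19 tested partners of Hsp90, 16 had a fold change below 0, beside 61.3% of all tested genes. After either scaling between libraries 11 did, beside 48.9% of all genes (median-of-ratios) and 44.3% (upper-quartile). Ppid, a cyclophilin co-chaperone, alone fell, which is 5.26% of the list where 5.15% of all genes fell. Ppid was at 54.1, 57.6 and 55.8 FPKM in the null and 78.1, 71.5 and 70.8 in the wild type (log2 fold change -0.39, SE 0.07, adjusted p = 0.0168). It lost the call without null embryo 1, wild-type embryo 1 or wild-type embryo 2 (adjusted p = 0.0601, 0.0681 and 0.0735). The list's count of called genes was 3 after either scaling between libraries and without null embryo 3, where Fkbp4 and Tomm70a, named after their values were seen, were called lower with Ppid. It was 2 with a mean filter of 5 FPKM.

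The direction was tied to level. Of the 20 members with a mean of at least 50 FPKM, a limit chosen after the values were seen, all 20 had a fold change below 0 and 7 fell. Of all 981 tested genes at that level, 79.1% had a fold change below 0 and 9.38% fell, so abundant genes as a whole lay low in the null libraries on the deposited scale. After median-of-ratios scaling the share of members below 0 was 72.9% beside 48.9% of all genes, and their median was -0.12. After upper-quartile scaling it was 70.0% beside 44.3%, with a median of -0.10. The members' FPKM summed to 4582, 4590 and 5181 in null embryos 1 to 3 and to 6007, 6285 and 5657 in wild-type embryos 1 to 3, so the groups did not overlap and null embryo 3 came closest.

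**Figure D4:**
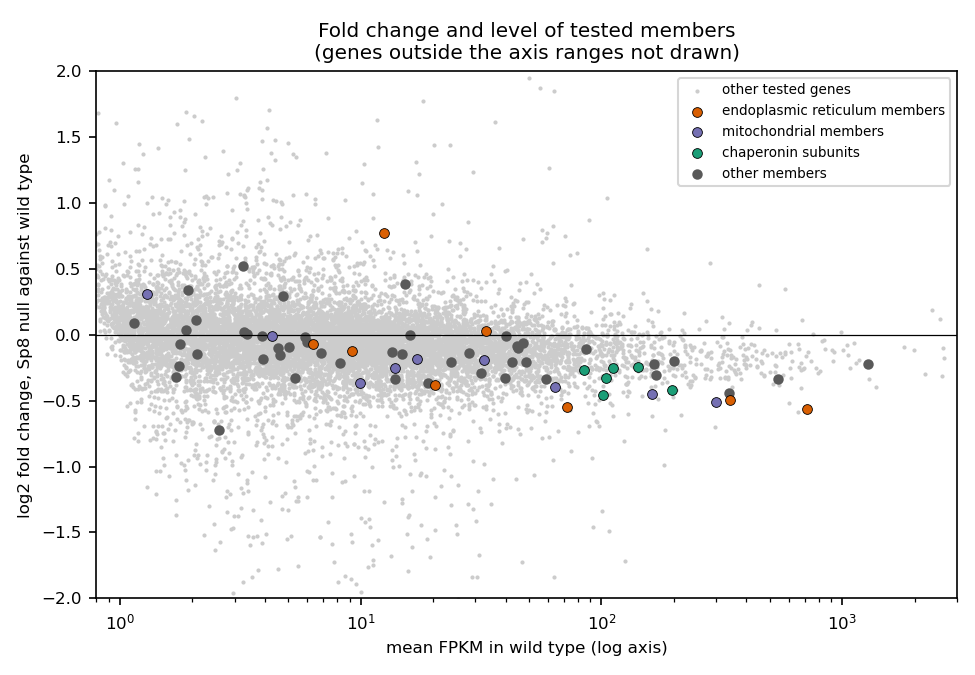
Log2 fold change against the wild-type mean FPKM (log axis) for the 70 tested members, coloured by compartment, over all other tested genes in grey. Above 50 FPKM every member lies below 0 and the grey cloud also leans below it, where 79.1% of genes are lower.

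The authors' deposited table also gives a fold change and a p-value for each gene, from a test that is not described and without stated adjustment. Of the 70 tested members, 35 had p under 0.05 in the authors' deposited table, 31 lower and 4 higher, beside 31.3% of all tested genes (20.0% lower). All 10 called members were among the 35 and had the same direction there. The authors' deposited table gives signed fold changes of -1.42 for Hsp90b1, -1.37 for Hspa5, -1.35 for Dnajb11, -1.38 for Hspd1, -1.33 for Hspe1, -1.23 for Hsp90aa1, -1.99 for Hspa2 and 1.87 for Dnajc1, where a minus sign marks a lower value in the null.

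The 19 members that were not tested lay at or under about 1 FPKM. Of these, 18 were under 1 FPKM in every library, and Dnajb8, Hspb3, Dnajc5b and Dnajc5g were listed at 0 in all 6. Hspa12a, named after its values were seen, was at 0.638, 0.682 and 1.02 FPKM in the null and 0.596, 0.634 and 0.410 in the wild type, a higher value in every null library. The authors' deposited table lists it at a fold of 1.36. Depth per library is unknown from these values, so how far a value under 1 FPKM differs from 0 was not assessed.

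In GENCODE M21 the other called members lie at the following GRCm38 positions. In the ER set these are Hsp90b1 at chr10:86690209-86705509, Hspa5 at chr2:34771970-34777547, Dnajb11 at chr16:22857845-22879634 and Dnajc1 at chr2:18195654-18392830. In the cytosol these are Hsp90aa1 at chr12:110690605-110702728, Hspa2 at chr12:76404176-76406938 and Dnajc2 at chr5:21757267-21785251, all as spans of the whole gene. Hspa9 of mitochondria lies at chr18:34937414-34954357. Hsp90b1 shares exon sequence with 2 short genes on its own strand and 1 on the other, so part of its reads may be theirs.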

How the data were processed

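The deposited values are FPKM per gene and library, estimated by the authors on Ensembl build 87 gene models per the file headers. The submitters' processing notes name GRCm38, FastQC, SAMtools, TopHat2, Cufflinks and DESeq2, with no role or version. The deposited table also holds a signed fold change by the authors (a score, above 1 or below -1) and a p-value per gene, by a test not given in the sources used here. Depth is unknown, since FPKM keeps no total here, so no counting interval is given.

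FPKM was transformed as log2(FPKM + 1), only genes reaching 1 FPKM in 3 or more of the 6 libraries were kept, and limma 3.58.1 (R 4.3.3) with a mean-variance trend compared 3 Sp8 null with 3 wild-type embryos, without covariates, tested on simulated data first. The labels name separate embryos as replicates, 3 per genotype. Near-identical genes were sought with BLAST 2.17.0 against GENCODE M21 transcripts. Promoter windows of RefSeq matched 72 members by symbol. Tables and motif counts used Python 3.11.15 with pandas 2.3.3.

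The members and all gene lists were chosen with earlier results of these data known, and no list was tested as a set. Named were Sp8, each called member, the 6 most abundant members, in each family the member with the smallest p and the most abundant, the CCT, heat-inducible and ER members, and the gene with the smallest p of each other list. Further names were chosen after their values were seen. Alternatives were a pseudocount of 0.1, no filter, a mean of at least 5 FPKM, 2 scalings, a covariate for the number that opens each sample name, a replicate block, no trend, a threshold of 0.01, genes with failed estimates left out, each library left out and, added after seeing the data, the 4 libraries named with 5.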

Additional observations from a re-analysis of the deposited data

How the results depend on the processing

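All 10 called members kept their direction under each alternative run in which they were tested. Of 753 single-gene values over 45 genes, 621 kept direction and side of the threshold, 116 lost the call, 11 gained it and 5 changed sign: Dnajb9 to 0.016 with upper-quartile scaling, Dnajc10 to -0.012, -0.0048 and -0.016 without null embryo 2, null embryo 3 and wild-type embryo 3 (its range was -0.016 to 0.10 with 1 library left out), and the marker Egfl7 to -0.0022 among the libraries named with 5. The 10 member calls (9 lower, 1 higher, 829 genes) became 1 (1 lower, 0 higher) without a filter (342 genes), with a replicate block (328 genes) and at an adjusted p under 0.01 (244 genes). They became 6 (5 lower) with the leading number as a covariate (545 genes) and 6 (5 lower) without the trend. Among the libraries named with 5 they became 1 (0 lower, 163 genes). With 1 library left out, 0 to 14 members were called (0 to 13 lower, 0 to 1 higher) among 213 to 665 genes, fewest without wild-type embryo 2. Members called higher were 2 with a mean filter of 5 FPKM, median-of-ratios scaling and upper-quartile scaling, where the members' median was -0.22, -0.12 and -0.10. The block joins equal embryo numbers, which are not pairs: their deviations correlated at -0.164, -0.145 and -0.0699. The cause of these losses was not tested. The fits that leave libraries out have fewer samples, and the fit without a filter has more genes.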
